A study of Mus musculus with 2 samples.

Results

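Macrophages with Arg1 or Mmp12 were examined in mouse mammary tumours grown from 4T1 cells, an established breast cancer line, by droplet-based single-cell RNA sequencing. One library came from mice given normal saline (vehicle) and 1 from mice given β-elemene at 30 mg/kg, injected into the peritoneum every day for 18 days. In both groups 4T1 cells had been placed in the mammary fat pad with Matrigel. The strain, age and number of mice behind each library are not stated in the sources used here, and with 1 library per group no difference between the groups could be tested. Every interval below is a 95% interval of counting error only, and does not cover variation between mice or between preparations.

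Members were chosen by 5 limits on a cell's own counts of unique molecular identifiers (UMIs). Barcodes entered with 200 or more genes seen and no more than 20% of UMIs from mitochondrial genes. The complement genes C1qa, C1qb and C1qc together reached 5 per 10000 UMIs with at least 1 UMI of Csf1r, the receptor for the macrophage growth factor CSF1. These first limits define what is called the macrophage gate below. Lyve1, Cd163, Fcna and Cbr2, which mark tissue-resident macrophages, together stayed under 2 UMIs, and the MHC class II genes Cd74, H2-Aa, H2-Ab1 and H2-Eb1 stayed under 1% of UMIs. Arg1 plus Mmp12 reached 5 per 10000. In all 1203 of 22863 barcodes met the rule, 656 in vehicle and 547 in β-elemene. Because the rule uses measured values, the levels of its 14 genes only describe how the cells were chosen.

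Arg1 encodes arginase 1, which splits arginine into ornithine and urea, and macrophages that make it can deplete the arginine that T cells need. Mmp12 encodes macrophage elastase, a secreted metalloproteinase that cuts elastin and other matrix proteins. Arg1 is induced in macrophages by interleukin 4 and interleukin 13, and also by lactate and low oxygen, and Arg1-high macrophages are a usual part of 4T1 and other transplanted mouse tumours. On the mm10 build Arg1 lies on chromosome 10 at 24915221 to 24927484 and Mmp12 on chromosome 9 at 7344381 to 7369499.

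A list of 10 macrophage markers, among them Adgre1, Cd68, Fcgr1, Mertk and Lyz2, together held 187 per 10000 UMIs in vehicle and 191 in β-elemene, and none of the 10 was at 0. The whole libraries held 168750895 and 157282740 UMIs. The median member had 14482.5 UMIs in vehicle and 14865 in β-elemene, so the depth of members was close in the 2 libraries. The libraries shared 37 barcodes, none of which was a member in both. Doublet calling marked 40 members (6.10%) in vehicle and 33 (6.03%) in β-elemene, and these cells were kept.

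RNA of other cells was present in members. Neutrophil markers held 2.80 per 10000 UMIs of members in vehicle and 3.43 in β-elemene, against 978 and 1001 in neutrophils. Fibroblast markers held 7.51 and 3.51, against 327 and 295 in fibroblasts, and malignant epithelial markers 3.58 and 2.93, against 43.7 and 52.2 in malignant cells. Set against its own class, the malignant epithelial level was the highest of these lists. Markers of T and natural killer, B, endothelial, dendritic, mast cells and pericytes each stayed under 0.6 per 10000, and only 1 of 7 T and natural killer markers and 2 of 4 B cell markers were at 0 in both libraries. Marker UMIs of 1 of these classes at 10 or more per 10000 were found in 63 vehicle members (9.60%) and 51 β-elemene members (9.32%), and for the results that turn on such cells values without them are given too.

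Members made up a smaller share of the β-elemene library. They were 6.07% of kept cells in vehicle (5.63 to 6.54) and 5.04% in β-elemene (4.63 to 5.46), a difference of -1.04 percentage points (-1.65 to -0.43). With class II allowed up to 2% of UMIs the difference was -0.717 points and its interval (-1.44 to 0.008) included 0. The whole macrophage gate took 25.3% of kept cells in vehicle and 25.7% in β-elemene. Within that gate members were 24.0% in vehicle (22.4 to 25.7) and 19.6% in β-elemene (18.2 to 21.1). Class II-high macrophages moved the other way, from 31.9% to 44.7% of the gate, while resident-like macrophages, those with at least 2 UMIs of Lyve1, Cd163, Fcna and Cbr2, went from 30.8% to 23.4%. The remaining class II-low macrophages, whose Arg1 plus Mmp12 stayed under the limit, took 13.2% and 12.4%. A share is fixed by what the other cells do, so a smaller share does not count cells per tumour.

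**Figure D1:**
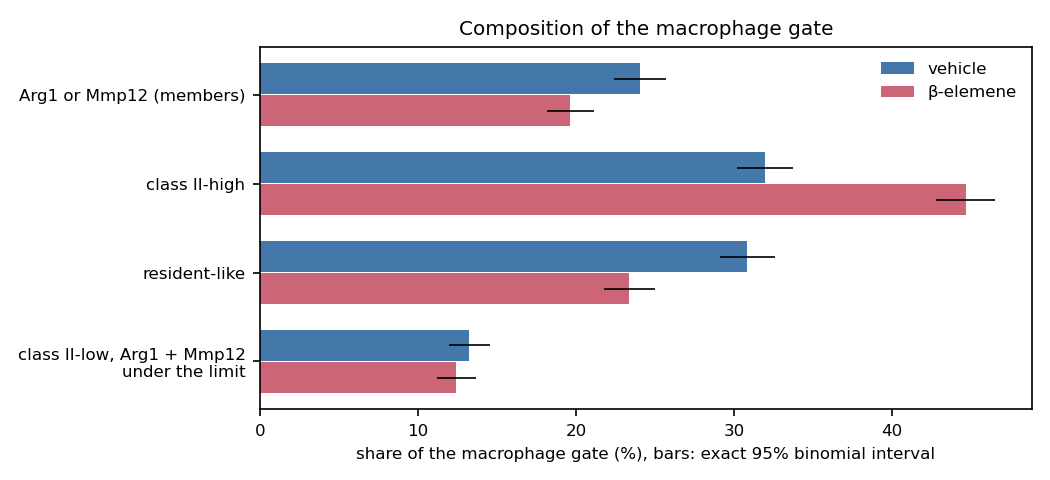
Share of the macrophage gate (%) taken by members and by the other 3 kinds of macrophage in vehicle and β-elemene, with exact 95% binomial intervals as error bars. Members took 24.0% and 19.6%, and class II-high macrophages 31.9% and 44.7%.

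Arg1 and Mmp12 were not confined to members. In vehicle 57.3% of all macrophages of the gate reached the Arg1 plus Mmp12 limit, and in β-elemene 47.0%. The same limit was met by 52.8% of class II-high macrophages in vehicle and 41.0% in β-elemene, and by 53.2% and 39.0% of resident-like macrophages. Among the class II-low cells outside the resident-like group, from which members are drawn, 64.5% reached it in vehicle and 61.3% in β-elemene, a difference of -3.18 points whose interval (-7.51 to 1.16) includes 0. These class II-low cells numbered 1017 in vehicle and 892 in β-elemene. Whether the differences differed between kinds of macrophage was not tested.

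Most members carried Arg1 without much Mmp12. At 5 per 10000 UMIs for each gene alone, the Arg1 set held 463 vehicle cells (70.6%) and 371 β-elemene cells (67.8%), and the set with both genes held 140 (21.3%) and 127 (23.2%). The Mmp12 set, with Arg1 under 5 per 10000, held 31 (4.73%, 3.23 to 6.64) and 37 (6.76%, 4.81 to 9.20). In 22 and 12 members only the sum of the 2 genes reached the limit. The intervals of these shares overlapped between the libraries for each of the 4 sets.

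The median member had 14.2 Arg1 UMIs per 10000 in vehicle, with a range of 0 to 145, and 12.9 in β-elemene, with a range of 0 to 96.0. For Mmp12 the medians were 0.717 and 0, and the highest members reached 212 and 129. No Mmp12 UMI was seen in 44.4% of vehicle members and 50.1% of β-elemene members, and no Arg1 UMI in 6 and 15 cells. Near the limit, 31 vehicle and 36 β-elemene members lay between 5 and 6 per 10000, and 43 and 35 class II-low macrophages fell just short, between 4 and 5. Cells thus lay on both sides of the limit in similar number. In each library 6 members rested on a single UMI.

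**Figure D2:**
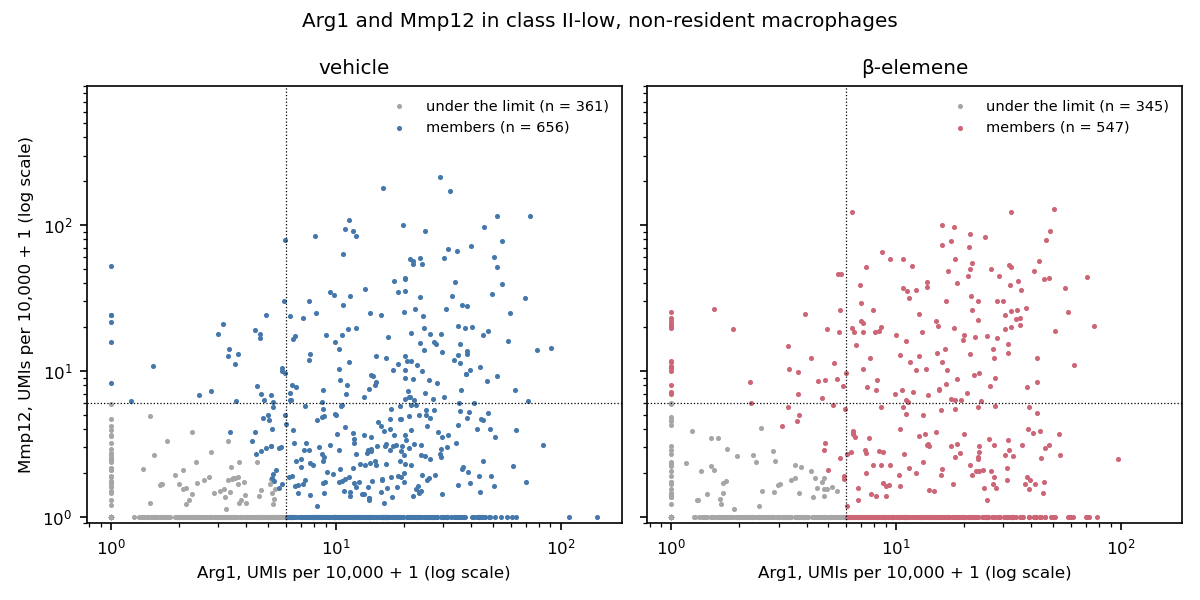
Arg1 (x axis) and Mmp12 (y axis) in each class II-low macrophage outside the resident-like group, as UMIs per 10000 plus 1 on log scales. Coloured points are the 656 vehicle and 547 β-elemene members, grey points the 361 and 345 cells under the limit, and dotted lines mark 5 per 10000 for each gene.

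Of the markers given for the population, Arg1 summed over members was at 1731 CPM, its UMIs scaled to the summed UMIs of all members, in vehicle and 1686 in β-elemene, and Mmp12 at 659 and 715. Pf4, platelet factor 4, a chemokine of platelets that some macrophages also make, was at 687 and 784 CPM, a β-elemene over vehicle ratio of 1.14 (1.10 to 1.18). Ccl24, the eotaxin that draws eosinophils, was at 337 and 268 CPM, a ratio of 0.795 (0.754 to 0.839). Msr1, scavenger receptor A, was at 589 and 585 CPM. Ccl24 was thus the marker of these 5 with the lowest ratio, and Mmp9, the other marker, was lower still.

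Mmp9 encodes gelatinase B, a metalloproteinase that cuts denatured collagen and basement membrane, and lies on chromosome 2 at 164940780 to 164955850. Its 1199 UMIs in vehicle members came to 117 CPM and its 422 UMIs in β-elemene members to 49.4 CPM, a ratio of 0.42 (0.38 to 0.47). It had the lowest ratio of the genes that the naming rule admitted, and over the settings tried its ratio stayed between 0.32 and 0.47. The lower level was seen in the Arg1 set (0.41) and in the set with both genes (0.42). The small Mmp12 set gave 0.16, from 22.97 to 3.64 CPM, on very few UMIs. Resident-like macrophages gave nearly the same ratio, from 109 to 44.9 CPM (0.41), class II-high macrophages 0.64 at a much lower level, and the other class II-low macrophages 1.09.

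Mmp9 was concentrated in few cells. The 10 members with most Mmp9 UMIs held 55.5% of them in vehicle and 55.2% in β-elemene. After every member was thinned to 3000 UMIs, which left out 19 vehicle and 18 β-elemene members, 10.8% of vehicle and 6.24% of β-elemene members had an Mmp9 UMI, against 21.8% and 14.6% before thinning. T and natural killer cells, which should lack the gene, had one in 1.96% and 1.45% at the same thinned depth, and those deep enough to be thinned had median depths of 5012 and 5343 UMIs. Neutrophils, a known source of Mmp9, held it at 196 and 188 CPM, so the level in neutrophils was close in the 2 libraries.

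Across all genes, 135 of 7733 with at least 200 UMIs in members differed by at least 1.5-fold between the libraries, which is 1.75% of those measured. Of these, 45 were higher in β-elemene, 0.582% of genes measured, and 90 were lower, 1.16%. Only 74 of the 135 reached 20% of the level of every other cell class with enough cells in the library where they were higher. The rest were thus far higher in some other cell class. B cells, mast cells and pericytes were too few to be used, as were the 46 dendritic cells of β-elemene, where vehicle had 62. Genes higher in β-elemene were therefore set against fewer classes than genes lower in it. Without the members that carried another class's markers, 38 genes were higher and 60 lower. Fibroblast markers were at 7.51 per 10000 in vehicle and 3.51 in β-elemene, and their part in the count of lower genes was not tested beyond that.

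The 10 named genes higher in β-elemene were Il6, Creg2, Ankrd37, Egln3, Ltb4r1, Zmynd15, Dok1, Hspa1a, Sap30 and Ckb, with ratios from 1.61 to 2.01. Il6, the inflammatory cytokine interleukin 6, went from 10.8 to 21.8 CPM (2.01, 1.58 to 2.57). Its UMIs were few and concentrated, since 10 cells held 57.7% of 111 UMIs in vehicle and 55.4% of 186 in β-elemene. T and natural killer cells held Il6 at 7.93 and 2.48 CPM. Ltb4r1, the high-affinity receptor for the neutrophil attractant leukotriene B4, went from 21.2 to 36.3 CPM (1.71, 1.44 to 2.05), and Ckb, the creatine kinase of brain and other tissues, from 35.3 to 56.8 (1.61, 1.40 to 1.85). Sap30, a subunit of the Sin3 histone deacetylase complex, was spread over more cells and went from 46.0 to 74.2 CPM (1.61, 1.43 to 1.82).

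Hspa1a, the inducible heat-shock protein 70, went from 61.7 to 100.1 CPM (1.62), with 60.1% of its β-elemene UMIs in 10 cells. Its ratio fell short of 1.5 when each cell counted equally, when called doublets were left out and when members with another class's markers were left out, where it was between 1.42 and 1.48. Dok1, an adaptor that dampens tyrosine kinase signals, had a ratio of 1.67, and 27 of its 197 β-elemene UMIs came from 1 cell. Without the top cell of each library its ratio was below 1.5, as it was in 4 other settings.

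Of the 10 named genes lower in β-elemene, Mmp9 is described above and the others had ratios from 0.521 to 0.572. Areg, the epidermal growth factor receptor ligand amphiregulin, went from 108 to 58.1 CPM (0.539, 0.484 to 0.6). Adamdec1, a secreted metalloproteinase of the ADAM family found in macrophages and dendritic cells, went from 62.2 to 32.7 CPM (0.526, 0.455 to 0.606), with ratios of 0.436 in the Arg1 set and 0.604 in the set with both genes. Rsad2, the antiviral enzyme viperin, had a ratio of 0.521, but 308 of its 585 vehicle UMIs came from 1 cell, and without the top cell of each library the ratio was 0.901. Pomgnt1, an enzyme that builds sugar chains on dystroglycan, likewise rested on 1 vehicle cell with 45 of 140 UMIs.

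Several of the lower genes were as low in every kind of macrophage. Cdk8, the kinase of the Mediator complex, went from 1893 to 1044 CPM in members (0.551), with ratios of 0.593 in class II-high, 0.625 in resident-like and 0.605 in other class II-low macrophages. Csnk2a2, a catalytic subunit of casein kinase 2, had ratios of 0.572 in members and 0.570 to 0.604 in the other 3 kinds. Ccdc162 behaved alike, at 0.567 in members and 0.467 to 0.562 elsewhere. These 3 differences followed the library and were not a trait of members. Among the genes with higher ratios, Ankrd37, Ltb4r1 and Zmynd15 also passed 1.5-fold in the other class II-low macrophages (2.62, 2.08 and 1.63), and Ankrd37 reached 1.46 in resident-like and 0.977 in class II-high cells.

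**Figure D3:**
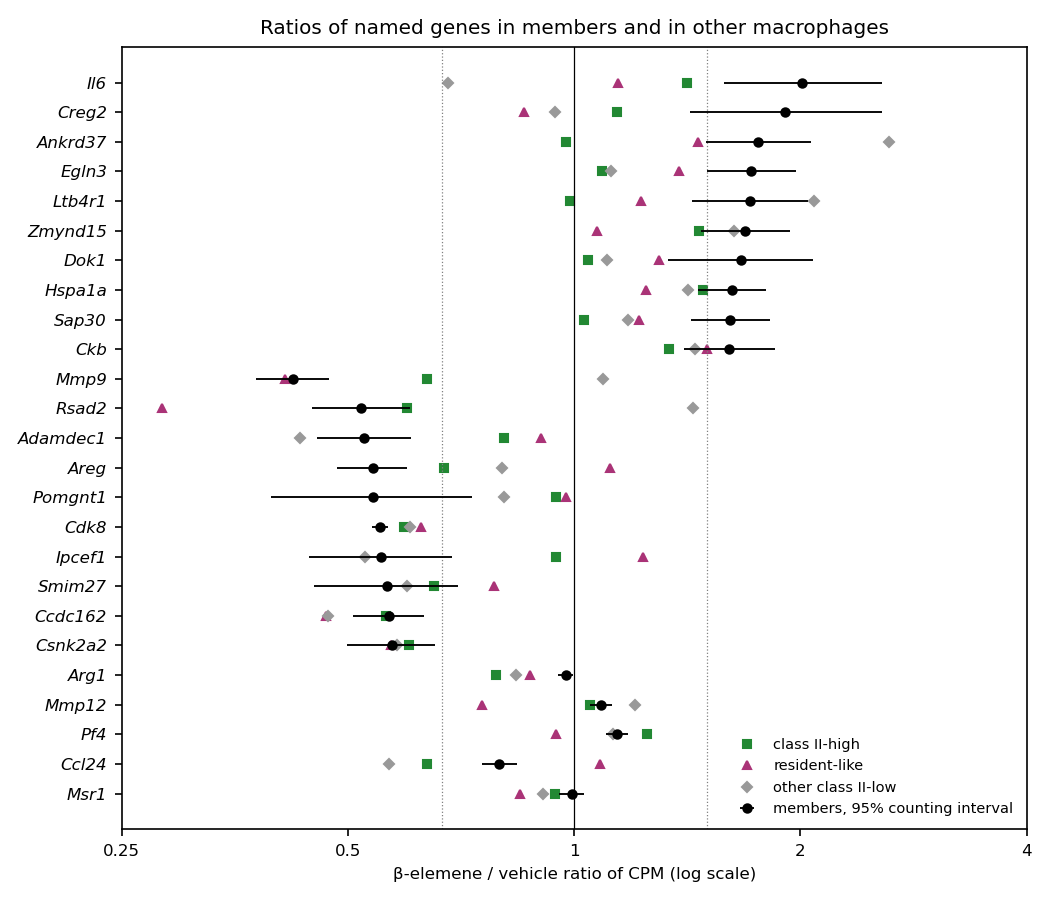
β-elemene over vehicle ratio of CPM (log scale) for the 20 named genes and the 5 other markers, with members as black points and 95% counting intervals as lines. Coloured points give the ratio in class II-high, resident-like and other class II-low macrophages. Cdk8, Ccdc162 and Csnk2a2 lie at 0.467 to 0.625 in all 4.

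Genes of the response to low oxygen and of glycolysis leaned upward in the β-elemene members. The hypoxia-inducible factors are broken down when oxygen is present, and when oxygen is short they bind a core of ACGTG near genes for glucose uptake, glycolysis, angiogenesis and their own control. Of 24 hypoxia genes with at least 50 UMIs, 19 had a ratio above 1 and 3 reached 1.5-fold, where 2.52% of all 11133 genes measured did, and 0 were lower by that much, where 3.57% of all genes were (6.09% in either direction). The median log2 ratio was 0.18, beside -0.00 over all genes. Of 19 glycolysis genes 18 had a ratio above 1, 1 reached 1.5-fold, 0 were lower by that much and the median was 0.25. The gene past 1.5-fold, the glucose transporter Slc2a3 (1.52), had only 26 and 33 UMIs and stood at 0.764 without the top cell of each library. Over the settings tried the medians ran from 0.17 to 0.23 for hypoxia and from 0.22 to 0.29 for glycolysis.

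The 3 hypoxia genes past 1.5-fold were Ankrd37, a small ankyrin-repeat protein, Egln3, an oxygen sensor that marks hypoxia-inducible factors for breakdown, and Car9, a carbonic anhydrase of the cell surface. Ankrd37 went from 25.4 to 44.6 CPM (1.76, 1.498 to 2.07) and Egln3 from 35.6 to 61.3 (1.72, 1.502 to 1.97). In T and natural killer cells Ankrd37 was at 11.0 CPM in vehicle and 12.4 in β-elemene, and Egln3 at 34.8 and 16.6, so in vehicle Egln3 was as high there as in members. Car9 was at only 6.64 and 10.4 CPM (1.57). For these 3 the 250 bases before the RefSeq start (GRCm38.p6) are shown, because all 3 hold the core ACGTG or its reverse complement CACGT, printed in capitals. The windows are chr8:45999851-46000100 on the minus strand, chr12:54203875-54204124 on the minus strand and chr4:43506776-43507025 on the plus strand.
Ankrd37: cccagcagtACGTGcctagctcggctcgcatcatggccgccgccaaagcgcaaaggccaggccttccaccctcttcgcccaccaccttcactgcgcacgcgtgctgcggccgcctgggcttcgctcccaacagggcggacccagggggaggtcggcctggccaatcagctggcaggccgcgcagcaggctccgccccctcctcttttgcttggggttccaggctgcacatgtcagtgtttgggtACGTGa
Egln3: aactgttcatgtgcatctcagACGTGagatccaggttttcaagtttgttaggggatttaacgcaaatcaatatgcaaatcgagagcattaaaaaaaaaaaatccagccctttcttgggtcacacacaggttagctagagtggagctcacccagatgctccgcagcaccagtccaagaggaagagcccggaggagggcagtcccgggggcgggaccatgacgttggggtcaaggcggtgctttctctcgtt
Car9: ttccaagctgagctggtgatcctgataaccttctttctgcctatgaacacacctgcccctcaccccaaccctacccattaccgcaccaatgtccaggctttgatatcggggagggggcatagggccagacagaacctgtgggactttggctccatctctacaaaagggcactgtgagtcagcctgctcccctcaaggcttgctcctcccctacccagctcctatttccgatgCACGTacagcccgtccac

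Read on both strands, ACGTG lay in the windows of 14 of the 22 hypoxia genes with a RefSeq entry (63.6%) and of 10 of 18 glycolysis genes (55.6%), some of which are on both lists. Of all 27025 genes with an entry, 4998 held it (18.5%), counting a gene once if any of its starts did. ACGTG contains the pair CG, and the windows were not matched for CG content. Both lists were written by hand as genes of these responses, and these shares use no expression value of the cells studied. They therefore bear on the choice of the lists and not on the difference between the libraries. A match of letters does not show binding.

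Better counted genes of these lists are given next. Slc2a1, the glucose transporter GLUT1, went from 130 to 168 CPM (1.29), Ero1l, which forms disulphide bonds in the endoplasmic reticulum, from 169 to 215 (1.27), Pkm, pyruvate kinase, from 777 to 950 (1.22) and Gapdh from 2167 to 2518 (1.16). Ldha, which makes lactate, was at 844 and 920 CPM (1.09). Hif1a itself, which is controlled mainly through its protein, was lower at 0.794, Vegfa, the growth factor for blood vessels, was at 0.889 and Hk2, hexokinase 2, at 0.741. Hilpda, a lipid-droplet protein and one of the most abundant hypoxia genes here, was at 670 and 695 CPM (1.04). Both lists thus held genes on either side of 1.

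The same lists were closer to even in the 2 larger kinds of macrophage. The hypoxia median was -0.03 in class II-high and 0.01 in resident-like cells, and the glycolysis medians were 0.00 and 0.05. In the other class II-low macrophages they were 0.26 and 0.26, as in members. Without cells that carried another class's markers the medians were 0.23 and 0.27 in members and 0.15 and 0.22 in the other class II-low cells. No test of the difference between kinds of macrophage was possible.

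**Figure D4:**
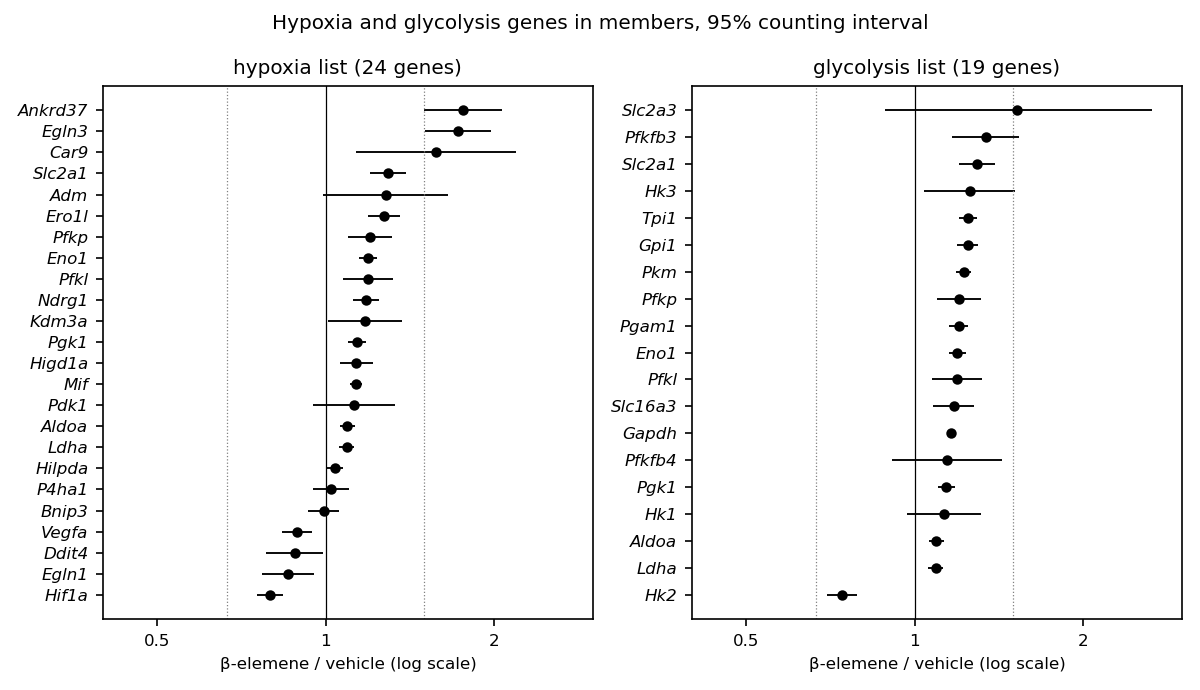
β-elemene over vehicle ratio of CPM in members (log scale) for each measured gene of the hypoxia list (24) and the glycolysis list (19), with 95% counting intervals. In the hypoxia list 19 genes and in the glycolysis list 18 lie above 1, and dotted lines mark 1.5-fold.

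Genes of alternative activation, the state driven by interleukin 4, leaned the other way. Of 17 measured, 2 had a ratio above 1 and the median log2 ratio was -0.23. None reached 1.5-fold in either direction, where 6.09% of all genes with 50 UMIs did. Mrc1, the mannose receptor, went from 465 to 393 CPM (0.846) and Tgm2, transglutaminase 2, from 274 to 230 (0.839), and the exceptions were Mgl2 (1.07) and Alox15 (1.28). Arg1, which belongs to this list but to the rule as well, is not counted. Class II-high macrophages had a median of -0.28, resident-like ones -0.07 and other class II-low ones -0.10.

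Of 19 measured metalloproteinases and inhibitors, 3 were at least 1.5-fold lower (Mmp9, Mmp8 and Mmp10), where 3.57% of all genes with 50 UMIs were, and 0 were higher, where 2.52% were. The median log2 ratio of this list was -0.09 in members. It was -0.12 in class II-high, -0.24 in resident-like and 0.02 in other class II-low macrophages, so members did not stand apart. Mmp8 and Mmp10 rested on low counts, at 19.2 and 10.1 CPM and at 7.22 and 1.76 CPM. Mmp13, collagenase 3, was at 100.1 and 103 CPM (1.03), Mmp14, which sits in the cell membrane and activates other metalloproteinases, at 163 and 155, and Adam8, a membrane-bound sheddase of myeloid cells, at 164 and 194 (1.18). Timp2, an inhibitor of these enzymes, was at 206 and 170 CPM (0.823). Of 11 other matrix proteases and their inhibitors 3 were at least 1.5-fold lower (3.57% of all genes), 0 were higher and the median was -0.20. The 3 had low counts: Ctsk, the collagen-cutting cathepsin K, had 142 UMIs in vehicle and 64 in β-elemene (0.541), Plat, tissue plasminogen activator, 132 and 69 (0.627), and Serpinb2, an inhibitor of plasminogen activators, 107 and 8 (0.0897), with 71 of the vehicle UMIs in 1 cell. Ctsb, Ctss and Ctsl, the abundant cathepsins B, S and L, were at 0.873, 0.925 and 0.979.

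Antigen presentation genes of class I leaned upward. Of 21 class I genes 16 had a ratio above 1, 1 reached 1.5-fold (2.52% of all genes), none was lower by that much (3.57% of all genes) and the median was 0.19. H2-Q7, a non-classical class I chain, went from 33.0 to 50.5 CPM (1.53), and Psmb9, an immunoproteasome subunit, from 105 to 155 (1.47, 1.35 to 1.59). The medians were 0.21 in class II-high, 0.15 in resident-like and 0.26 in other class II-low macrophages, so members did not stand apart. Of 20 iron and haem genes 10 had a ratio above 1 and 2 reached 1.5-fold, where 2.52% of all genes did. The median was 0.02, and -0.13 without members that carried another class's markers. Slc40a1, the iron exporter ferroportin (2.51), rested on 32 UMIs in vehicle and 67 in β-elemene, of which 10 cells held 65.6% and 52.2%. Hmox1, heme oxygenase 1, was at 123 and 193 CPM (1.57, 1.46 to 1.69), which differed among the sets, with 0.805 in the Arg1 set and 2.81 in the set with both genes. The ferritin chains Fth1 and Ftl1 had ratios of 1.19 and 1.22.

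Zinc genes leaned downward. Of 18 zinc transporters and metallothioneins 3 had a ratio above 1, 3 were at least 1.5-fold lower, where 3.57% of all genes were, and the median was -0.18, and the other 3 kinds of macrophage had medians of -0.15 to -0.30. Mt1 and Mt2, the metal-binding metallothioneins, had ratios of 0.764 and 0.761. In the inflammatory list Il1b was at 1.15 and Nfkb1, a subunit of NF-kB, at 0.760. Il1rn, the antagonist of interleukin 1, went from 245 to 170 CPM (0.694), and Tnfaip2, a gene induced by tumour necrosis factor, from 270 to 167 (0.618), with similar ratios in the other 3 kinds of macrophage (0.692 to 0.799 for Il1rn and 0.655 to 0.678 for Tnfaip2). These 2 were chosen after their values were seen.

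Members were then set beside the other macrophages of the same library, with the 14 genes of the rule left out. As the rule itself divides these cells, what follows is a description. Against the other class II-low macrophages, 57 of 7124 genes were at least 2-fold higher in both libraries (0.8%) and 190 at least 2-fold lower (2.67%). The higher genes held coagulation factors F7 and F10, the arginine carrier Slc7a2, the chemokine Ccl6 and the costimulatory receptor Tnfrsf9 (4-1BB). Slc7a2, which brings the substrate of arginase into the cell, was at 117 and 123 CPM in members and at 31.8 and 25.4 in the other class II-low cells, ratios of 3.68 in vehicle and 4.86 in β-elemene. Ccl6 was at 1219 and 1247 CPM in members and 4.12-fold and 3.93-fold higher than in those cells, though lower than in resident-like macrophages (0.538 and 0.493). F7 was 3.76-fold and 4.25-fold higher and F10 3.98-fold and 3.61-fold.

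The 12 genes lowest in members were Slit3, Ghr, Ank3, Fbn1, Nhs, Csgalnact1, Ebf1, Lrig1, Acta2, Efna5, Dlc1 and Amotl1, among them the fibrillin of elastic fibres (Fbn1) and smooth muscle actin (Acta2), at 0.224 to 0.268 of the level of the other class II-low cells in vehicle and 0.135 to 0.263 in β-elemene. Those cells held 16.0 and 17.3 fibroblast-marker UMIs per 10000, and 25.5% and 29.6% of them carried another class's markers. Without all such cells, 69 genes were at least 2-fold higher in both libraries and 4 lower, and of the 12 lowest only Ank3 and Efna5 kept a 2-fold lower level, on too few UMIs to be counted. The 4 were Cxcl9, Cxcl10, Fgd2 and Ms4a4c, of which Cxcl9 and Cxcl10 are interferon-induced chemokines that draw T cells through Cxcr3. Cxcl9 was at 0.305 and 0.293 of the level in the other class II-low cells.

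Against class II-high macrophages, 73 of 7854 genes were at least 2-fold higher in both libraries (0.929%) and 52 lower (0.662%). The higher genes numbered 41 without called doublets and 43 without cells that carried another class's markers. Mmp9 was 16.8-fold higher in vehicle and 11.1-fold in β-elemene, at 6.99 and 4.45 CPM in class II-high cells, and Pf4 was 5.03-fold and 4.59-fold higher. F13a1, the clotting factor that cross-links fibrin, was 4.06-fold and 4.42-fold higher. Of 21 interferon gamma genes 6 were at least 2-fold lower, where 0.752% of all genes with 50 UMIs were, and none was higher, where 1.71% were, with medians of -0.82 and -0.73. Cxcl9 was at 0.132 and 0.241 of the class II-high level. Cell division genes had medians of 0.77 and 0.67, and Top2a, the topoisomerase of dividing cells, was at 150 and 115 CPM in members and 71.1 and 72.3 in class II-high cells.

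Against resident-like macrophages, 58 of 7637 genes were at least 2-fold higher in both libraries (0.759%) and 190 lower (2.49%). Alternative activation genes were lower, with medians of -1.09 and -1.08, and 10 of 19 were at least 2-fold lower, where 2.81% of all genes with 50 UMIs were, and 2 were higher, where 0.972% were. Mrc1 stood at 0.316 and 0.283 of the resident-like level, Folr2, a folate receptor, at 0.152 and 0.116 and Ccl8, a chemokine, at 0.0538 and 0.0297. Mmp9 was level with resident-like cells (1.07 and 1.10). Mgl2 (2.54 and 2.64) and Socs2 (2.02 and 2.14) were the 2 genes of the list that were higher.

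Hypoxia and glycolysis genes had higher median levels in members than in each of the other kinds of macrophage, by less than 2-fold for most genes. In vehicle and β-elemene the hypoxia medians were 0.68 and 0.61 against the other class II-low cells, 0.47 and 0.62 against class II-high and 0.45 and 0.59 against resident-like cells, while the medians over all genes lay between -0.12 and 0.10. Glycolysis medians were 0.60 and 0.58, 0.40 and 0.56, and 0.37 and 0.58. Bnip3, which removes mitochondria when oxygen is short, was at 210 and 208 CPM in members against 65.3 and 78.1 in the other class II-low cells, 115 and 105 in class II-high and 147 and 131 in resident-like cells. Few single genes passed 2-fold in both libraries, 3 of 24 hypoxia genes against the other class II-low cells (0.776% of all genes with 50 UMIs), where 1 was lower (5.12% of all genes). Against class II-high cells 3 of 24 passed it (1.71% of all genes with 50 UMIs) and against resident-like cells 0 of 24 (0.972%). Of 19 glycolysis genes 0 passed it against any of the 3 kinds, beside the same shares of all genes. Without cells that carried another class's markers the hypoxia medians were 0.88 and 0.99 against the other class II-low cells, 0.41 and 0.64 against class II-high and 0.47 and 0.63 against resident-like cells. The medians were thus above 0 in both libraries, with and without such cells.

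Within members, cells with both genes differed from those with Arg1 alone. Of 5017 genes outside the rule with enough UMIs, 27 were at least 2-fold higher in the set with both genes in both libraries (0.538%) and 15 lower (0.299%). These genes are named after their values were seen. Mmp13 was at 38.6 CPM in the Arg1 set and 282 in the set with both genes in vehicle, and at 37.4 and 263 in β-elemene, ratios of 7.31 (6.33 to 8.46) and 7.02 (5.98 to 8.27). Mmp9 was at 72.0 and 312 CPM in vehicle and 29.3 and 131 in β-elemene, ratios of 4.34 and 4.46, so the set with both genes held the highest Mmp9 in each library. Nos2, the inducible nitric oxide synthase that competes with arginase for arginine, was at 20.7 and 78.0 CPM in vehicle and 19.8 and 135 in β-elemene (3.77 and 6.81). Over all members, 10 cells held 37.4% of 321 Nos2 UMIs in vehicle and 40.3% of 380 in β-elemene.

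Other genes of the set with both genes were Tnfrsf9 (3.23 and 4.49), Ero1l (2.52 and 2.67) and Fabp5, a fatty acid carrier, at 263 and 663 CPM in vehicle and 270 and 996 in β-elemene (2.52 and 3.68). Of 24 hypoxia genes 23 were higher in both libraries, with medians of 0.48 and 0.45 beside -0.09 and -0.11 over all genes, and 3 were past 2-fold, where 0.569% of all genes with 50 UMIs were, with 0 past it downward, where 0.647% were. Glycolysis medians were 0.49 and 0.36 and lipid-associated macrophage genes, such as Fabp5 and Lgals3, 0.41 and 0.52. Cell division genes went the other way, with medians of -0.28 and -1.02, and none of 20 was higher in both libraries. Without members that carried another class's markers those medians were -0.65 and -0.96. Without members that carried another class's markers the hypoxia medians were 0.55 and 0.44, and 16 of 140 vehicle and 6 of 127 β-elemene cells of the set with both genes were such members.

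The Mmp12 set was small, so its levels are coarse, with 478952 UMIs in vehicle and 550128 in β-elemene. Another class's markers were carried by 3 of its 31 vehicle cells and 9 of its 37 β-elemene cells. Neutrophil markers in it were at 1.09 and 7.16 per 10000 UMIs and malignant epithelial markers at 5.57 and 8.09. Without members that carried another class's markers, Mmp13 was 6.29-fold and 8.83-fold higher in the Mmp12 set than in the Arg1 set. Itgax was then 4.10-fold and 4.92-fold higher, Cadm1 3.66-fold and 4.20-fold and Mgl2 2.19-fold and 3.99-fold. The counts of genes that follow were not redone without such members. Of 4428 genes, 10 were at least 2-fold higher in it than in the Arg1 set in both libraries (0.226%) and 30 were at least 2-fold higher in the Arg1 set (0.678%). Mmp13 was again higher, at 253 and 274 CPM, and so was Itgax, the integrin CD11c, at 123 and 105 CPM against 29.8 and 24.2. Cadm1, an adhesion molecule, was at 104 and 131 CPM against 26.5 and 37.3, and Mgl2, a lectin of macrophages and dendritic cells, at 196 and 234 against 77.1 and 66.7. Mmp9 did not follow Mmp13, at 22.97 and 3.64 CPM in the Mmp12 set, the latter on 2 UMIs. Without members that carried another class's markers, Mmp9 in the Mmp12 set stood at 0.320 of the Arg1 set in vehicle and at 0 in β-elemene. Nos2 had no UMI there in vehicle, where a count of 0 allows up to 6.26 CPM, and was at 16.4 CPM in β-elemene.

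The Arg1 set was higher in Prtn3, the serine protease proteinase 3, at 58.1 and 86.9 CPM against 6.26 and 3.64 in the Mmp12 set, which rest on 3 and 2 UMIs there. It was also higher in F13a1 (231 and 233 against 12.5 and 45.4) and in Thbs1, the matrix protein thrombospondin 1 (193 and 143 against 29.2 and 30.9). Thbs1 was intermediate in the set with both genes, at 100.4 and 80.0 CPM. Markers of monocytes were 3.40 and 3.70 per 10000 in the Arg1 set, 1.44 and 1.31 in the set with both genes and 1.55 and 1.33 in the Mmp12 set.

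**Figure D5:**
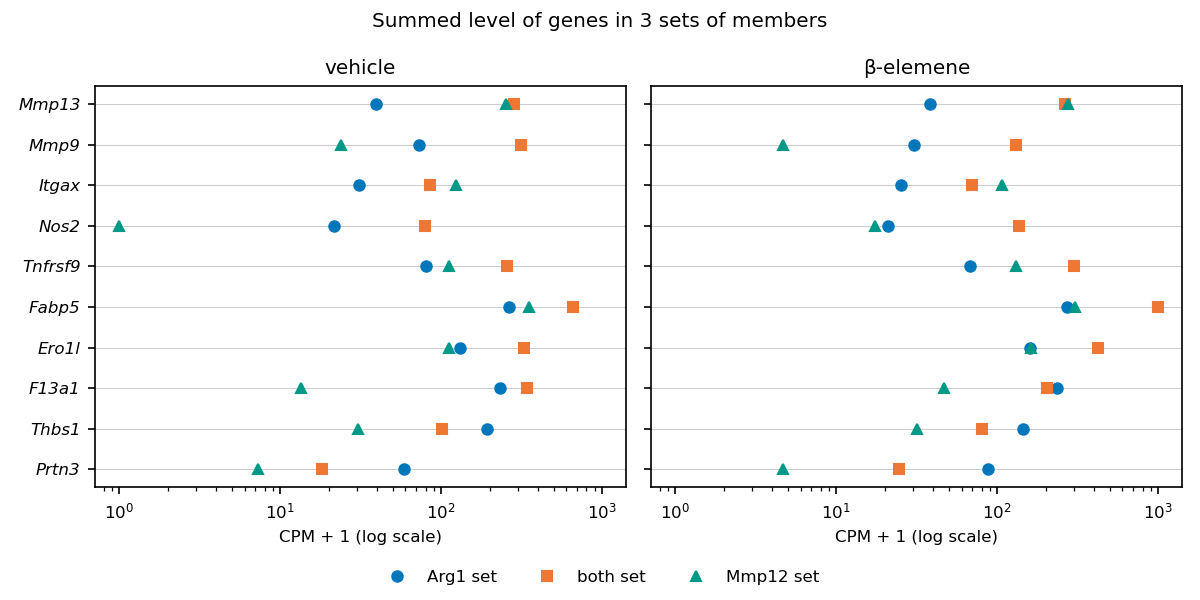
CPM plus 1 (log scale) of 10 genes in the Arg1 set, the set with both genes and the Mmp12 set of members in vehicle and β-elemene. Mmp13 is at 253 to 282 in the Mmp12 set and the set with both genes and at 37.4 to 38.6 in the Arg1 set. Mmp9 is highest in the set with both genes.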

How the data were processed

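The deposited matrices hold UMI counts per gene and barcode, made with Cell Ranger 7.1.0 per the file headers. Cell Ranger, STAR and the mm10 build are named per the submitters' processing notes, and how introns were counted is not given in the sources used here. Each file lists 32285 genes. From these counts, barcodes with at least 200 genes and at most 20% mitochondrial UMIs were kept, and members were chosen by the rule in the report. The members and gene lists were chosen with earlier results of these data known. UMIs were summed over cells per library and scaled to the summed total (CPM). A ratio is β-elemene over vehicle with a 95% conditional binomial interval, and shares have exact Clopper-Pearson intervals. Intervals and floors (3 counts) cover counting error only. Genes were called at 1.5-fold with at least 200 UMIs between libraries, and at 2-fold in both libraries between kinds of macrophage or sets. List medians use genes with at least 50 UMIs. The 10 highest and 10 lowest ratios were named among genes with at least 200 UMIs whose interval excluded 1. In the higher library such genes also reached 20% of the CPM of every other cell class used and had a UMI in at least 5% of members. Classes with few cells were not used. These were B cells (3 in vehicle and 11 in β-elemene), mast cells (21 and 14) and pericytes (10 and 16). Dendritic cells were used in vehicle (62) but not in β-elemene (46). Also named were the markers, the 12 highest and 12 lowest genes against the other class II-low macrophages, the 8 highest of the Arg1 and Mmp12 sets against each other, and the 3 most abundant and the most extreme gene of each list. Further genes were chosen after their values were seen, and some genes that the rule names are not reported here. Doublets were called with Scrublet as run in scanpy 1.11.5 and kept. Ratios were also run on simulated Poisson counts. These counts lack the concentration of UMIs in few cells, so they do not show how the intervals hold for such genes. Python 3.11.15, numpy 2.4.6, scipy 1.17.1, pandas 2.3.3 and matplotlib 3.10.9 were used.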

Additional observations from a re-analysis of the deposited data

How the results depend on the processing

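No paired analysis was possible because each group had 1 library, and for the same reason no replicate could be left out. The share of members in the macrophage gate differed by -7.40 points when cells were thinned to 3000 UMIs, and by -3.30 to -5.54 points in the other settings. The counts of genes higher and lower between the libraries were 16 and 37 with 10 CPM added, 281 and 397 at 50 UMIs or more, 19 and 42 at 500 UMIs or more, and 2942 and 3962 with no minimum above 1 UMI. Against the other class II-low macrophages the genes lower in members numbered 64 without called doublets, 548 at 50 UMIs or more and 4 without cells carrying another class's markers, a setting chosen after seeing the data. Against class II-high macrophages the higher genes numbered 41, 189 and 43 in those settings, and the lower genes 83 at 50 UMIs or more. Against resident-like macrophages 107 were higher and 309 lower at 50 UMIs or more. Of single genes, Slc2a3 turned to 0.764 without the top cell of each library and 0.721 without members carrying another class's markers, where Fabp4 turned to 0.930 and Serping1 to 1.14. The cause was not tested, except that a lower minimum of UMIs tests more genes and a higher one fewer. Of the 20 named genes, 13 passed 1.5-fold with 10 CPM added and 17 without the top cell. Depth limits genes of few UMIs and the small sets of members.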

Other observations

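Lipid-associated macrophage genes had no shared direction between the libraries. Of 22 measured, 11 had a ratio above 1 in β-elemene members and the median log2 ratio was 0.00. At least 1.5-fold, 3 were lower, where 3.57% of all genes with 50 UMIs were, and 1 was higher, where 2.52% were. The lower ones were Acp5, an acid phosphatase of macrophages and osteoclasts, at 111 and 73.8 CPM (0.664), and, on few UMIs, Gpnmb (0.572) and Lpl (0.590). Lgals3, the lectin galectin 3, went from 1242 to 1640 CPM (1.32), Trem2, a lipid-sensing receptor, from 255 to 308 (1.21), Spp1, osteopontin, from 4076 to 4392 (1.08), and Apoe, the lipid carrier, had a ratio of 1.04. Fabp4, another fatty acid carrier, had a ratio of 8.02, but 1 β-elemene cell held 496 of its 568 UMIs.

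Genes of vascular and tissue growth leaned downward, with 5 of 22 above 1 and a median of -0.14. Of the 22, 2 were at least 1.5-fold lower (Areg and Igf1), where 3.57% of all genes with 50 UMIs were. The median was -0.27 in resident-like, -0.06 in class II-high and -0.03 in other class II-low macrophages, so the lean was not particular to members. Without members that carried another class's markers 1 of 17 was above 1 and the median was -0.25. Of the 17, 4 were at least 1.5-fold lower, where 321 of all 10396 genes measured in those cells were. Fn1, the matrix protein fibronectin, went from 3055 to 2608 CPM (0.854) and Thbs1 from 160 to 123 (0.765). Receptors for chemokines and growth factors had a median of -0.14, with 3 of 18 above 1.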
